A study of Caenorhabditis elegans with 2 samples.

Results

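Of the 1804 peaks in the LIM-7 peak list made from both replicates, 335 overlapped a thresholded peak of exactly 1 replicate and had a summit more than 500 bp from the start of every tRNA, snRNA, snoRNA, miRNA and rRNA gene. Replicate 1 alone held 145 of them and replicate 2 alone held 190, among 1258 peaks of the list away from those short noncoding genes. These shares were 11.5% for replicate 1 alone and 15.1% for replicate 2 alone, while 214 peaks (17%) recurred in both replicate lists and 709 were in neither. An overlap of 1 bp counted, so the peaks were chosen on the values of the lists themselves, and membership, signal and rank are given below as a description. Before the distance rule the counts were 183 and 246, and the rule removed 38 peaks of replicate 1 alone and 56 of replicate 2 alone, against 386 of the 600 recurring peaks.

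The peaks came from chromatin immunoprecipitation and sequencing (ChIP-seq) of whole Caenorhabditis elegans L4 larvae, aged 48.5 hours and synchronised as starved L1 larvae. Both replicates were biological replicates of strain OP779, which carries the integrated transgene wgIs779 in an unc-119(tm4063) background. The transgene holds unc-119(+) and a lim-7 gene fused to the tags TY1, EGFP and 3xFLAG. The tagged protein was precipitated with an antibody against GFP, and the chromatin was sheared by sonication. Nothing in the labels separates the replicates other than their number, so there was 1 library a side. Whole animals were used, so no peak can be assigned to a cell type. Read depth is unknown from peak lists, intervals cover counting error only, and each p-value below describes these lists and not the spread between animals.

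LIM-7 belongs to the Islet class of LIM-homeodomain transcription factors. Such proteins pair LIM zinc fingers, which bind partner proteins, with a homeodomain, which binds DNA with a TAAT core, and in the worm lim-7 is known for its expression in the gonadal sheath, the contractile cells around the germ line. A thresholded list rests on the irreproducible discovery rate (IDR), which ranks candidate peaks in paired sets of data and estimates how often a candidate of that rank or better fails to recur. Transfer RNA genes carry their own promoter inside the gene, as an A box and a B box that bind the transcription machinery of RNA polymerase III.

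The sequences that follow, each the 100 bp around a summit on the plus strand of ce11 and read from the reference genome (RefSeq), show what kinds of place the strongest members of each side marked. Capitals mark matches to the motifs searched, on either strand. From replicate 1 alone come a summit in a 75 bp noncoding RNA gene, F08G2.13, and one in the intron of F40F11.3 at the promoter it shares with mig-38.
chrII:13834460-13834559, replicate 1 alone: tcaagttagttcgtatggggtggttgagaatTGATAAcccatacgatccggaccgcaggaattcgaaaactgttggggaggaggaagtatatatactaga
chrIV:11593566-11593665, replicate 1 alone: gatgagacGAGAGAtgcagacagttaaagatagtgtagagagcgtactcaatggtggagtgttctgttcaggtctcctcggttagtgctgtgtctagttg
From replicate 2 alone come a summit in Y53G8B.t9, annotated as a tRNA pseudogene, an intergenic summit on X, a tandem repeat on V and the upstream region of iff-2, the gene of a translation initiation factor of the eIF5A type.
chrIII:3112149-3112248, replicate 2 alone: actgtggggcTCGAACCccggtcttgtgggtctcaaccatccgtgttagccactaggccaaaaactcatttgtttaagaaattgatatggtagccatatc
chrX:1070730-1070829, replicate 2 alone: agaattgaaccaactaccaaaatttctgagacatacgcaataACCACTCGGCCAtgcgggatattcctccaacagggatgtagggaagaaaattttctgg
chrV:14756700-14756799, replicate 2 alone: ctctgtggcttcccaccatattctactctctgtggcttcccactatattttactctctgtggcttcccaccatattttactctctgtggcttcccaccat
chrII:8561403-8561502, replicate 2 alone: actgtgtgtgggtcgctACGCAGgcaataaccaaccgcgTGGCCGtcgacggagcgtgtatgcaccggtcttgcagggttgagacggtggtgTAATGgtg
The fourth strongest recurring peak away from short noncoding genes is shown for the stretch it shares, on the opposite strand, with the member on X.
chrIV:2740178-2740277, recurring: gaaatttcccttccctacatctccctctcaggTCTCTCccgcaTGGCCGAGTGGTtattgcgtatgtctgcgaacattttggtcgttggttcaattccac

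The sides had nearly the same signal. In the pooled list the deposited signal value had a median of 104.9 for replicate 1 alone (7.53 to 247.5) and 103.8 for replicate 2 alone (4.60 to 181.2). Recurring peaks had a median of 173.7 and peaks in neither list a median of 87.4. Both sides thus lay between the other sets, with ranges that overlapped those of both. Within the thresholded list of their own replicate the members sat low, at a median signal percentile of 21.7 among the 883 peaks of replicate 1 and 21.6 among the 920 of replicate 2. The recurring peaks stood at 49.3 and 51.5 in those lists. Summits in the pooled list and in the member's own replicate lay a median of 13 bp apart for replicate 1 alone and 10 bp for replicate 2 alone.

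**Figure D1:**
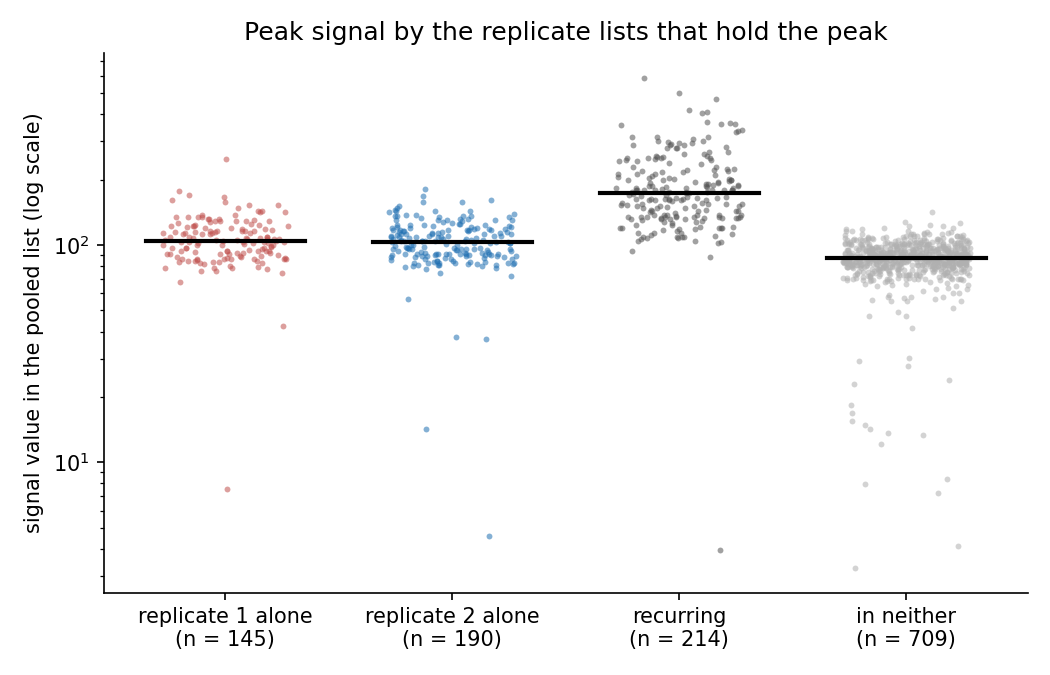
The deposited signal value in the pooled list (log scale) of each peak away from short noncoding genes, for 145 peaks of replicate 1 alone, 190 of replicate 2 alone, 214 recurring peaks and 709 in neither replicate list. Each point is a peak and each black line a median, at 104.9, 103.8, 173.7 and 87.4, and the points of both sides overlap, with the highest, at 247.5, in replicate 1 alone.

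Nearly all members had a candidate peak in the replicate whose thresholded list lacked them. Replicate 2 had a candidate of any rank at 139 of the 145 peaks of replicate 1 alone (95.9%), and replicate 1 had one at 185 of the 190 peaks of replicate 2 alone (97.4%). Counted by single bases, the ranked candidates covered 18.4% of the genome in replicate 2 and 15.6% in replicate 1. An overlap of 1 bp with the whole peak counted here, so the like share for whole peaks is higher. That share was not computed, nor was the share for peaks in neither list. The candidates at members stood high in these long lists, with a median signal percentile of 96.4 among the 76263 candidates of replicate 2 and of 96.4 among the 66957 of replicate 1. Over all candidates the median signal value was 18.9 in replicate 2 and 19.2 in replicate 1. A percentile in a ranked list is thus not like one in a thresholded list. At members of replicate 1 alone, the candidates had a median signal value of 43.1 in replicate 2, against 61.7 for the same peaks in replicate 1. For replicate 2 alone the medians were 42.3 in replicate 1 and 63.5 in replicate 2. The candidate had the higher signal value in the replicate that lacked the peak for 11 of 139 peaks of replicate 1 alone and 7 of 185 of replicate 2 alone. One of the 7 was the peak 86 bp upstream of iff-2, with a signal value of 59.4 in replicate 2 and 76.6 in replicate 1, where its IDR was 0.497.

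The global IDR of these candidates ran higher for replicate 2 alone. Its median was 0.0963 for replicate 1 alone and 0.158 for replicate 2 alone. Candidates with an IDR above 0.01 and up to 0.05 lay under 51 peaks of replicate 1 alone (35.2%) and 53 of replicate 2 alone (27.9%). An IDR above 0.2 was found for 43 peaks of replicate 1 alone (29.7%) and 87 of replicate 2 alone (45.8%). Just past the threshold, the lowest values were 0.01005 and 0.01009 for replicate 1 alone, and 0.01009 and 0.0102 for replicate 2 alone. Just inside it, the recurring peaks reached 0.0091 in replicate 1 and 0.00999 in replicate 2. On the distance rule, the nearest members kept lay 600 and 609 bp from a short noncoding gene start for replicate 1 alone and 567 and 654 bp for replicate 2 alone. The nearest removed lay at 498 and 364 bp for replicate 1 alone and at 213 and 157 bp for replicate 2 alone. The smallest overlap with a peak of the own replicate was 44 bp for replicate 1 alone and 38 bp for replicate 2 alone. The conservative list held 109 peaks of replicate 1 alone (75.2%) and 142 of replicate 2 alone (74.7%), against 211 of 214 recurring peaks (98.6%) and 422 of 709 in neither (59.5%).

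**Figure D2:**
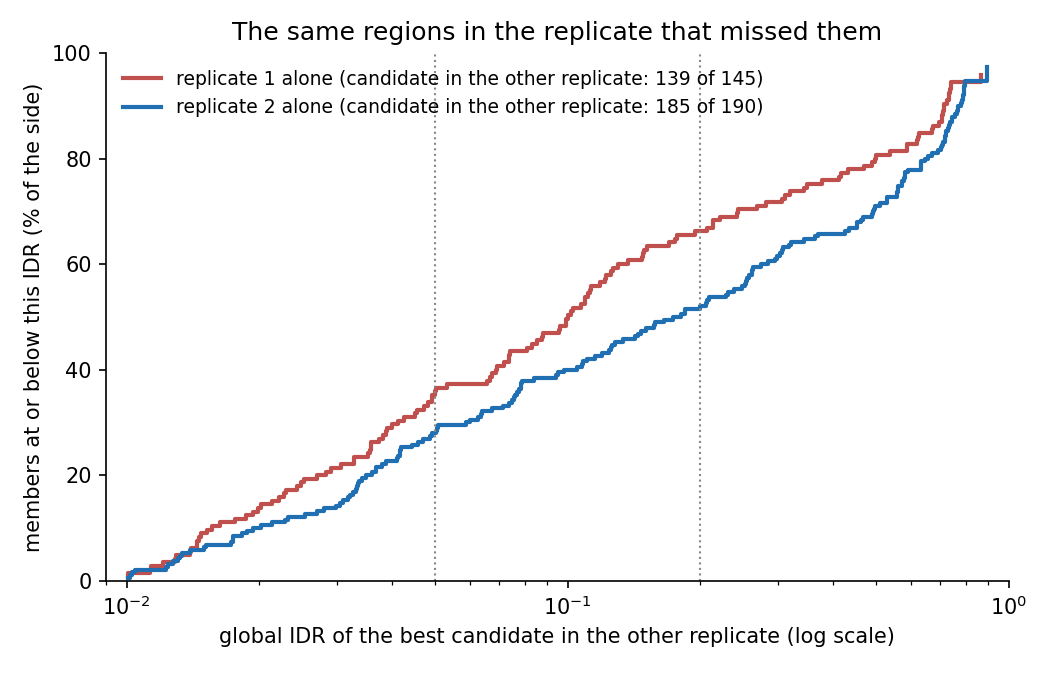
Share of each side (vertical axis, % of members) whose best candidate in the other replicate had a global IDR at or below the value on the horizontal axis (log scale), with dotted lines at 0.05 and 0.2. The line of replicate 1 alone lies above that of replicate 2 alone over most of the range and reaches 95.9% at its end, against 97.4% for replicate 2 alone.

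A total of 11 members had no candidate at all in the other replicate, 6 of replicate 1 alone and 5 of replicate 2 alone. They included the strongest member of all, on chromosome I at 2996299 to 2996434. Its signal value was 247.5 in the pooled list and 136 in replicate 1, and the conservative list lacked it. This summit lay 120 bp upstream of dnj-28, which encodes a DnaJ-domain chaperone, and 454 bp upstream of supr-1. Others without a candidate lay 2398 bp downstream of the start of hsp-1, the gene of a constitutive Hsp70 chaperone (signal value 170.5), in an intron of Y41G9A.17 (156.9) and 127 bp downstream of the start of atp-5, a subunit gene of the mitochondrial ATP synthase (129.9). On the replicate 2 side they included the member on X shown above (160.4), a peak 545 bp upstream of gpa-7, a G protein alpha subunit gene (113.5), and one in the coding sequence of rpl-12 (109.6). None of the 11 had a central 50 bp that occurs elsewhere in the genome.

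The other strong members of replicate 1 alone included peaks at noncoding RNA genes and in promoters of protein-coding genes. The peak at F08G2.13, 879 bp upstream of F08G2.5, had a signal value of 177.7 in the pooled list. Its value was 102.3 in replicate 1 and 75.4 in replicate 2, where the IDR was 0.0114. A peak in the 58 bp noncoding RNA gene W01D2.7 had 166.5 in the pooled list, 91.3 in replicate 1 and 75.9 in replicate 2. Upstream of ntl-2, a subunit gene of the CCR4-NOT deadenylase complex, the summit lay 425 bp from the start with a signal value of 153.0. The peak in the coding sequence of hsp-90, the gene of a cytosolic chaperone, had a signal value of 147.3. It lay 123 bp downstream of the nearest transcript start of hsp-90, which is inside the gene and not at its annotated start. A peak between W03C9.5, rab-7 (a GTPase of late endosomes) and mex-1 (a germ line RNA-binding protein) had 143.9.

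Among the strong members of replicate 2 alone more lay far from genes. Its strongest, on chromosome I at 5639194 to 5639457, had a signal value of 181.2 in the pooled list, 129.8 in replicate 2 and 53.2 in replicate 1. The nearest protein-coding start, that of M01A12.4, was 3984 bp away. The peak at the tRNA pseudogene Y53G8B.t9 had 167.4 in the pooled list, 103.6 in replicate 2 and 60.2 in replicate 1. The tandem repeat shown above had 158.4, and its central 50 bp occurred 42 times in the genome. At ZK1053.2 the summit lay 592 bp upstream (158.2), at pro-1, a gene of ribosome production and germ line growth, 118 bp upstream (145.3), and at zim-1, which encodes a zinc finger protein of meiotic chromosome pairing, in an intron (143.9). Among the 10 strongest of each side, 7 of replicate 1 alone and 3 of replicate 2 alone lay in a promoter, a count over few peaks that was not tested.

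Over all members no difference in place between the sides passed the test. A promoter was taken as 1000 bp upstream to 200 bp downstream of a protein-coding transcript start. Such promoters held 73 of 145 summits of replicate 1 alone (50.3%, exact 95% interval 41.9 to 58.7) and 95 of 190 of replicate 2 alone (interval 42.7 to 57.3%). The odds ratio was 1.01 (0.643 to 1.60). Intergenic summits made up 49.7% of replicate 1 alone and 54.7% of replicate 2 alone. Introns held 29 summits of replicate 1 alone and 36 of replicate 2 alone, and coding sequence held 29 and 37 (odds ratio 1.03, 0.577 to 1.84). Chromosome X, 17.7% of the genome, held 11.0% and 13.2%, against 14.5% of all 1258 peaks away from short noncoding genes. Chromosome III, 13.7% of the genome, held 26.2% and 20.5%, against 19.4% of those 1258 peaks. None of the 8 features tested differed between the sides (Fisher's exact test, two-sided, Benjamini-Hochberg adjusted p of 1 for each). The largest gaps were 5.37 points for summits with 50% or more G and C (46.2% of replicate 1 alone, 51.6% of replicate 2 alone) and 5.08 points for intergenic summits. For promoters the interval of the odds ratio leaves room for a difference in either direction.

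**Figure D3:**
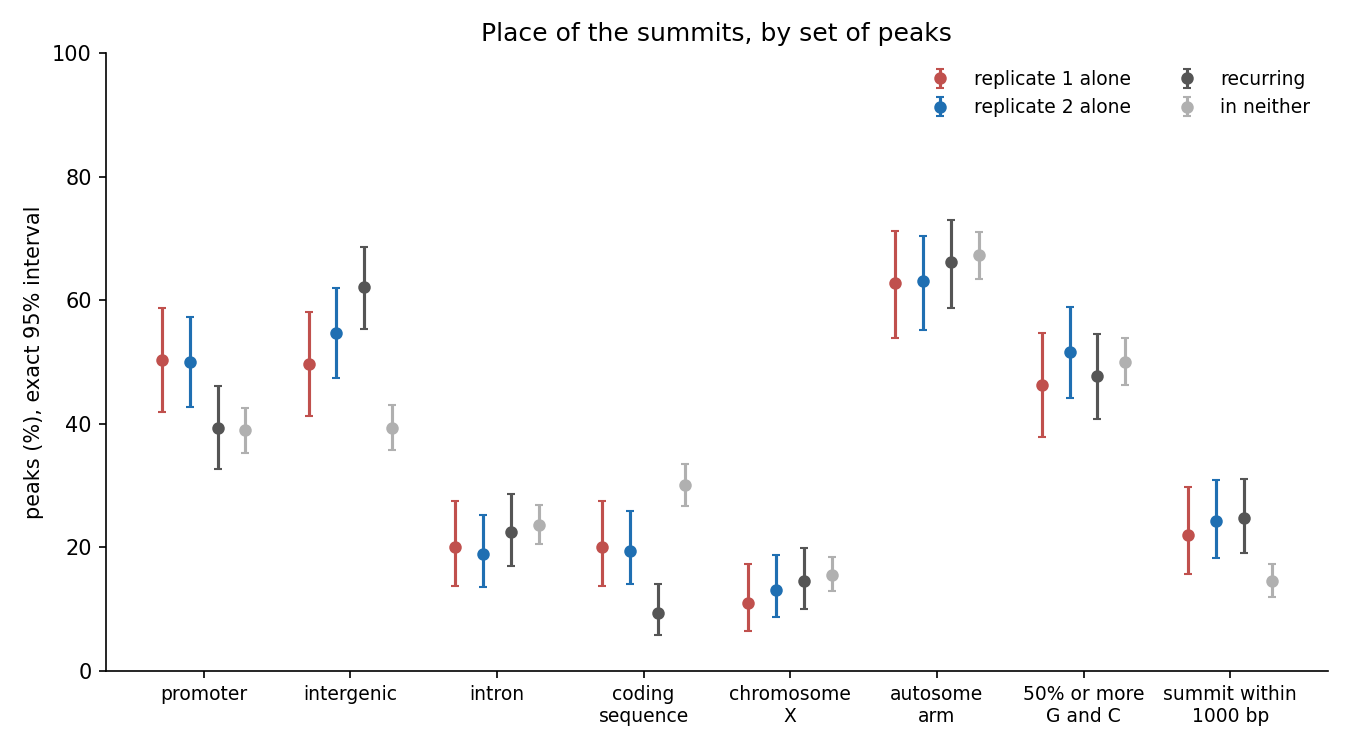
Share of summits (vertical axis, %) with each of 8 features, for replicate 1 alone, replicate 2 alone, recurring peaks and peaks in neither replicate list; points are shares and bars exact 95% binomial intervals. The points of both sides lie within each other's intervals for every feature, with 73 of 145 and 95 of 190 summits in promoters, while coding sequence holds 9.35% of recurring peaks and 30.0% of those in neither list.

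Distances to gene starts were not tested between the sides. The nearest protein-coding start was a median of 562 bp from summits of replicate 1 alone and 748.5 bp from those of replicate 2 alone. A summit lay within 200 bp upstream of that start for 21 peaks of replicate 1 alone (14.5%), 31 of replicate 2 alone (16.3%) and 22 recurring peaks (10.3%). More than 5000 bp away were 5 (3.45%), 15 (7.89%) and 19 (8.88%). Another summit of the same side lay within 1000 bp of 8 peaks of replicate 1 alone (5.52%) and 14 of replicate 2 alone (7.37%). A summit of replicate 2 alone lay within 1000 bp of 2 peaks of replicate 1 alone (1.38%). One such pair was 433 bp apart at pals-26 and the noncoding RNA gene srpr-1.1 on chromosome III, with signal values of 131.2 and 132.2, and the other 949 bp apart at mak-1 (105.0 and 119.7). Recurring summits lay within 1000 bp of 12 peaks of replicate 1 alone (8.28%) and 6 of replicate 2 alone (3.16%).

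In the promoters of protein-coding genes, members of replicate 1 alone reached 100 of 19973 genes (0.501%) and those of replicate 2 alone 116 (0.581%), or 215 together (1.08%). The gene they shared was cls-2, which encodes a microtubule-stabilising CLASP protein. Its replicate 1 summit lay 40 bp downstream of a start (signal value 85.8) and its replicate 2 summit upstream (136.4). A recurring peak also lay in the promoter of 8 of the 215 genes.

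Ribosomal protein genes were the list with the most members, at 13 of 78 (16.7%), 7 from replicate 1 alone and 6 from replicate 2 alone. The strongest were at rps-28 (signal value 134.9) and rpl-7 (108.4) on the side of replicate 1 alone, and rps-19 (136.6) and rpl-41.2 (115.1) on that of replicate 2 alone. The genes rpl-36 and rps-14 shared 1 peak, and 2 of the 13 also had a recurring promoter peak. At rps-28 the value was 82.7 in replicate 1 and 57.0 in replicate 2 (IDR 0.0148 in replicate 2). At rps-19 it was 96.9 in replicate 2 and 49.4 in replicate 1 (IDR 0.793 in replicate 1). The ribosomal protein genes as a list were already known to hold promoter peaks in these data, so their count is no independent support.

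Heat shock genes made 3 of 22 (13.6%), all from replicate 1 alone, while recurring promoter peaks lay at 2 others. The 3 were hsp-90, hsp-60, a mitochondrial chaperonin (signal value 107.7), and hsp-4, the chaperone BiP of the endoplasmic reticulum (107.0). Each had a candidate in replicate 2. At hsp-60 that candidate had the higher signal value, 62.8 in replicate 2 against 50.5 in replicate 1. Histone genes made 4 of 72 (5.56%): his-60 (113.1), his-47 (112.8) and 1 other from replicate 1 alone, and his-63 (90.6) from replicate 2 alone. Translation factors made 2 of 33 (6.06%), iff-2 and eef-1A.2, an elongation factor gene with a signal value of 132.1, both from replicate 2 alone. These counts of 0 to 7 a side were not compared between the sides. Recurring promoter peaks lay at 5 ribosomal protein, 5 histone, 2 heat shock and 0 translation factor genes, against 107 of all 19973 protein-coding genes. A recurring summit also lay in the coding sequence of hsp-90.

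Other lists held 0 to 2 genes each, beside the 1.08% of all protein-coding genes. Nuclear hormone receptors made 2 of 269 (0.743%), nhr-1 from replicate 1 alone (113.3) and nhr-49, a regulator of fat metabolism, from replicate 2 alone (87.4). Chemoreceptors made 2 of 1286 (0.156%), srx-17 (115.7) from replicate 1 alone and srh-246 (117.9) from replicate 2 alone. The cuticle collagen gene col-52 (137.7) was 1 of 156 collagens (0.641%), and the neuropeptide gene nlp-76 (122.2) was 1 of 140 (0.714%). The splicing factor gene prp-19 (115.7) was 1 of 30 (3.33%), and the developmental timing gene lin-66 (104.9) was 1 of 9 heterochronic genes (11.1%). These 4 came from replicate 1 alone. The 30 lists, compared here by counts alone, included 8 LIM homeobox and LIM binding genes, 15 genes of the gonadal sheath and spermatheca, 14 each of body wall muscle, intestine, hypodermis, neurons and germ line, and 8 of the pharynx, and none of these had a member in its promoter. At the 1.08% share of all genes, lists of 8 to 15 genes are too short for a count of 0 to differ from it. The nearest member lay 77248 bp from lim-7, 391407 bp from ldb-1, the gene of a LIM binding protein, and 77335 bp from unc-119.

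Annotated genes outside the protein-coding and short noncoding classes lay under some members. Noncoding RNA genes held 14 summits of replicate 1 alone (9.66%), 14 of replicate 2 alone (7.37%), 27 recurring ones (12.6%) and 40 in neither list (5.64%). Pseudogenes held 1 summit of replicate 1 alone (0.690%) and 6 of replicate 2 alone (3.16%), against 6 recurring ones (2.80%). Exact copies elsewhere of the central 50 bp were found for 8 peaks of replicate 1 alone (5.52%), 11 of replicate 2 alone (5.79%), 27 recurring peaks (12.6%) and 27 in neither list (3.81%). Copies were most numerous at the peak of replicate 1 alone in the promoter of mmab-1, with 70. A peak of replicate 1 alone in an intron of osm-12 and the tandem repeat of replicate 2 alone on V had 42 each. The gene gpd-2, a glyceraldehyde phosphate dehydrogenase with near-identical copies, and pck-2, of gluconeogenesis, were among those of replicate 2 alone. Reads of such copies may be placed on either one, and their part in these peaks was not tested.

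Motifs did not separate the sides. TAAT, the homeodomain core, was in the 100 bp around 52 summits of replicate 1 alone (35.9%) and 45 of replicate 2 alone (23.7%), a difference of 12.2 points that was lost on adjustment over 18 motifs (Fisher's exact test, p = 0.0206, adjusted p = 0.371). Both shares lay below the 63.5% of all 100 bp stretches of the genome and the 59.4% of flanks of the members, 200 to 300 bp from the summit. That was not particular to the members. TAAT was in 27.1% of recurring peaks, 33.9% of those in neither list and 32.4% of the whole main list. No share was adjusted for the G and C content of the windows. CACGTG, the E box, was in 1 window of replicate 1 alone (0.690%) and 9 of replicate 2 alone (4.74%; p = 0.0475, adjusted p = 0.428, Fisher's exact test), against 1.65% of the genome. CGGCCA was in 9 windows of replicate 1 alone and 22 of replicate 2 alone, ACCACT in 8 and 19, and GTTCGA, a B box core, in 10 and 14. Over the whole main list, with its peaks near short noncoding genes, these 3 were in 11.5%, 17.6% and 18.3%. In the genome they were in 1.82%, 3.18% and 3.68% of 100 bp stretches. The longer homeodomain site TAATTA was in 1 window of replicate 1 alone and 2 of replicate 2 alone, against 0.942% of the main list and 4.70% of the genome. TGTTTAC, a forkhead site, was in none of the 335, with an exact 95% interval that ends at 1.10%. It was rare elsewhere too, in 1.55% of the main list and 1.11% of the genome. Recurring peaks held it in 0.935% (Fisher's exact test against members, adjusted p = 0.472).

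Of 2080 6-mers, counted on both strands as 1, 0 (0%) were called higher and 0 (0%) lower in replicate 1 alone than in replicate 2 alone (Fisher's exact test, adjusted p below 0.05). At an unadjusted p below 0.05 the counts were 37 higher and 50 lower. The leading one, TGCCAA, was in 16 windows of replicate 1 alone (11.0%) and 3 of replicate 2 alone (1.58%), with an adjusted p of 0.471 in Fisher's exact test. CCGCAC was in 10.3% and 1.58%, CTCGCC in 2.07% and 10.5%, CACGAA in 11.0% and 2.63%, and CAATGC in 9.66% and 2.11%. On simulated lists of the same sizes, 5 6-mers added to 20% of the windows of 1 side were recovered in 90% of cases over 20 runs. That addition is larger than the gap of TGCCAA, and the simulated 6-mers were drawn independently of each other. The simulation therefore does not say whether differences of the size seen here could be called.

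Against the recurring peaks, the members of both sides lay more often in coding sequence. It held 66 of 335 members (19.7%, 15.6 to 24.4) and 20 of 214 recurring peaks (9.35%, 5.80 to 14.1), with an odds ratio of 2.38 (Fisher's exact test, adjusted p = 0.00869 over 8 features). The share of members was below the 23.8% of all 1258 peaks away from short noncoding genes and the 30.0% of those in neither list. Promoter summits made up 50.1% of members and 39.3% of recurring peaks (adjusted p = 0.0558, Fisher's exact test), and intergenic ones 52.5% and 62.1% (adjusted p = 0.0741). Signal moved with the coding sequence difference, which was -1.16 points among peaks of a signal value at or above the median of the list (Fisher's exact test, adjusted p = 1). It did not pass in the conservative list (7.50 points, adjusted p = 0.0923, Fisher's exact test) or without peaks with exact copies (9.56 points, adjusted p = 0.0501). Among peaks with a signal value of 100 to 150, a range chosen after seeing the data, coding sequence held 20 of 176 members (11.4%) and 13 of 71 recurring peaks (18.3%), a difference of -6.95 points (Fisher's exact test, adjusted p = 0.519). The promoter difference was 10.9 points, and it passed the test under 5 of the 12 alternatives, with 15.8 points among peaks of a signal value at or above the median of the list (Fisher's exact test, adjusted p = 0.0261). In the range of 100 to 150 promoters held 94 of 176 members (53.4%) and 24 of 71 recurring peaks (33.8%), with an adjusted p of 0.0582.

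**Figure D4:**
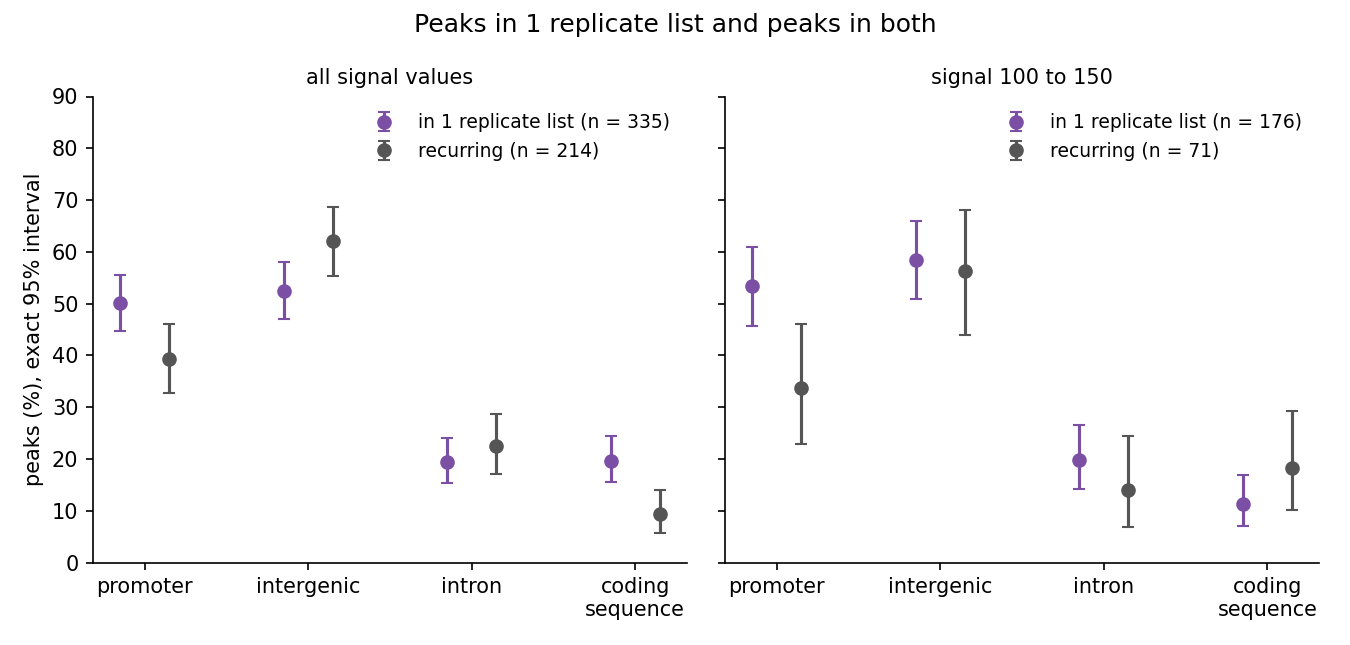
Share of summits (vertical axis, %) in promoters, between genes, in introns and in coding sequence, for peaks in 1 replicate list and for recurring peaks, at all signal values on the left and at signal values of 100 to 150 on the right; points are shares and bars exact 95% binomial intervals. Coding sequence holds 19.7% of peaks in 1 list and 9.35% of recurring ones on the left, and 11.4% and 18.3% on the right, while the promoter share is higher in 1 list on both sides (50.1% and 39.3%, then 53.4% and 33.8%).

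Sequence also differed between the members and the recurring peaks. TTTCAG, the consensus of worm splice acceptors, was in 43 of 335 member windows (12.8%) and 7 of 214 recurring ones (3.27%; Fisher's exact test, adjusted p = 0.00186). It was in 18.2% of members in coding sequence, 15.4% of those in introns and 9.66% of those between genes, and in 19.7% of the genome. ACCACT was in 8.06% of members and 18.2% of recurring peaks (adjusted p = 0.00403, Fisher's exact test), and CGGCCA in 9.25% and 16.8% (adjusted p = 0.0645). Peaks in neither list held TTTCAG in 8.74%, ACCACT in 5.92% and CGGCCA in 5.36%. Each of these shares was nearer to that of the members than to that of the recurring peaks. Over all 6-mers 1 (0.0481%) was called higher in members, CTGAAA, the reverse complement of TTTCAG, and 12 (0.577%) were called lower. The 12 were led by ATGGCC, in 2.99% of members and 16.8% of recurring peaks (Fisher's exact test, adjusted p = 3.81e-05). The next were CATGCG, in 11 member windows and 30 recurring ones, CCACTC, in 17 and 35, CACTCG, in 18 and 36, and AAATTT, in 31 and 47. At signal values of 100 to 150 no 6-mer and no motif passed, with TTTCAG in 21 of 176 members (11.9%) and 2 of 71 recurring peaks (2.82%; adjusted p = 0.275, Fisher's exact test). The TTTCAG difference there was 9.12 points, against 9.57 over all signal values. For ATGGCC the difference was -7.29 points there and -13.84 over all signal values, for CATGCG -2.79 and -10.74, and for CCACTC -2.20 and -11.28.

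Most of the 12 6-mers were pieces of 1 longer sequence, seen in the member on X shown above. The longest run of that window covered by them was 18 bases long, at chrX:1070770-1070787, and held 8 of the 12.
The 18-base word, member on X, plus strand: TAACCACTCGGCCATGCG
This search and those that follow in the paragraph were chosen after seeing the data and carry no test. Matches with up to 2 mismatches, on either strand, were in 1 window of replicate 1 alone (0.690%) and 4 of replicate 2 alone (2.11%), against 24 of 214 recurring peaks (11.2%), 3 of 709 in neither list (0.423%) and 0 of the 546 peaks near short noncoding genes. The exact word occurred 46 times in the genome. All 5 members that held it were intergenic.

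On its opposite strand the word carries the A box consensus of tRNA genes. A consensus of TGGCNNAGTGG, searched on both strands, matched 2 windows of replicate 1 alone (1.38%) and 7 of replicate 2 alone (3.68%). It matched 31 recurring windows (14.5%), 7 in neither list (0.987%), 56 of the 546 near short noncoding genes (10.3%) and 0.0938% of all 100 bp stretches of the genome. The B box consensus, taken as GGTTCNANNCC, matched 0 windows of replicate 1 alone and 7 of replicate 2 alone (3.68%). It matched 8 recurring windows (3.74%), 14 in neither list (1.97%), 225 near short noncoding genes (41.2%) and 0.255% of the genome. Both consensus sequences are 11 bases long, and a match does not show that a site is used.

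Part of these matches lay in tRNA pseudogenes. Of 209 tRNA pseudogenes in the RefSeq annotation, summits lay within 500 bp of one for 0 peaks of replicate 1 alone, 3 of replicate 2 alone (1.58%) and 4 recurring peaks (1.87%). Inside one lay the summits at Y53G8B.t9 and Y22D7AR.t1 on chromosome III, with signal values of 167.4 and 134.9, and both windows held an A box and a B box. The annotation behind the distance rule lists these genes as pseudogenes and not as tRNA genes. At Y22D7AR.t1 the signal value was 77.1 in replicate 2 and 55.6 in replicate 1, where the IDR was 0.0134. The third lay 24 bp from Y69A2AR.t1 on chromosome IV (91.2). The other A box members, 4 of them with the 18-base word, were away from any annotated tRNA pseudogene, by 26491 bp or more.

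**Figure D5:**
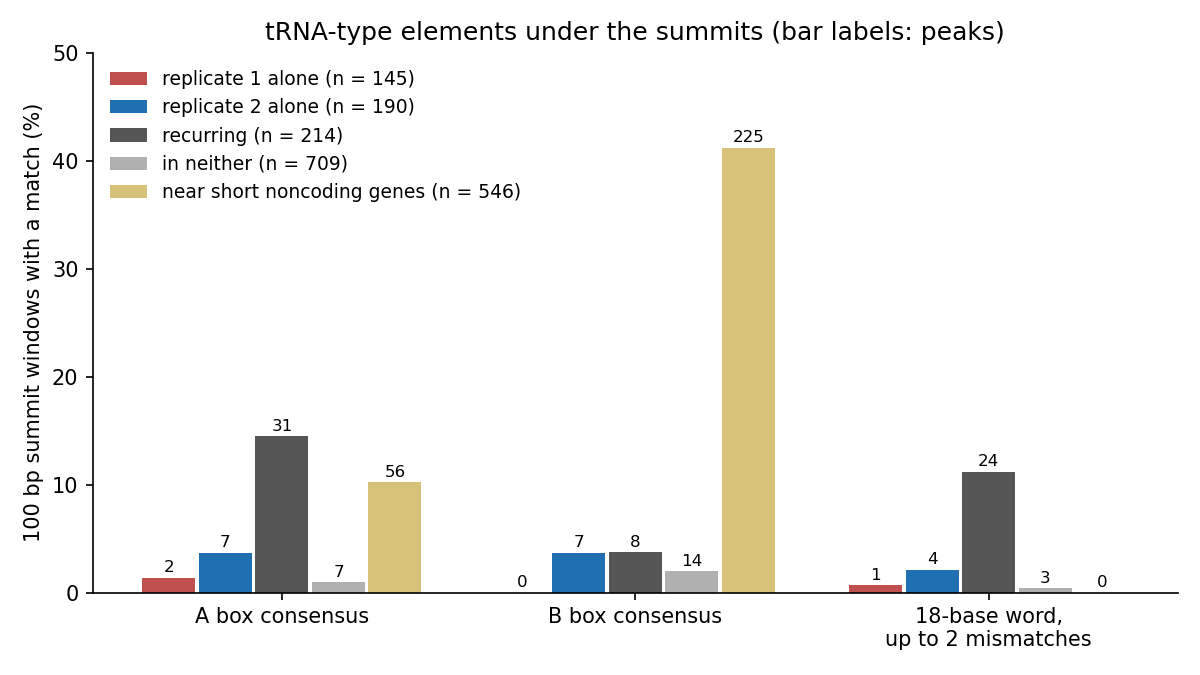
Share of 100 bp summit windows (vertical axis, %) that match the A box consensus, the B box consensus and the 18-base word with up to 2 mismatches, for replicate 1 alone, replicate 2 alone, recurring peaks, peaks in neither replicate list and the 546 peaks near short noncoding genes; the number on each bar counts peaks. The A box was in 2 and 7 windows of the sides and in 31 recurring ones, and the word was in 24 recurring windows and in 0 near short noncoding genes. The A box consensus lies within the word, so their bars are not independent.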

How the data were processed

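The authors deposited ranked and thresholded narrowPeak lists of replicate 1, of replicate 2 and of both, in ce11 coordinates per the labels. The aligner and the peak caller were not given in the sources used here. The deposited signal value has no stated scale, so values set side by side from the lists of the 2 replicates may differ in scale. Global IDR was read from the deposited −log10 values. All 1804 main-list peaks had an IDR of 0.01 or less in their ranked list. A total of 16 columns of single inputs were not used. Genes came from Ensembl release 115 (WBcel235, the sequence of ce11) and RefSeq.

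Overlaps, places and motifs were computed in Python 3.11.15 with scipy 1.17.1. Fisher's exact test was two-sided, with Benjamini-Hochberg adjustment within each family (8 features, 18 motifs, 2080 6-mers), and was tested on simulated data. Intervals are exact Clopper-Pearson 95% intervals. Members, motifs and the 30 gene lists were chosen with earlier results of these data known. Genes named are those at the 10 strongest members of each side, up to 2 per list and side, lim-7, ldb-1 and unc-119. Other genes were named after their values were seen.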

Additional observations from a re-analysis of the deposited data

How the results depend on the processing

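No feature, motif or 6-mer passed the test between replicate 1 alone and replicate 2 alone under the alternatives run. Of 88 alternative values of counts, 64 lay within 1.5 times the reported one and 24 did not. The 64 include counts of calls between the sides, where nothing was called in the main setting or in any alternative. Such empty counts match by default, so the figure of 64 overstates how steady the other counts were. No replicate was left out, since each side is defined by 1 replicate. No paired analysis was possible because each replicate is a side of its own. A total of 3 alternatives were chosen after seeing the data: signal values of 100 to 150, no exact copies of the central 50 bp, and no summits near other short annotated genes. The cause of the changes below was not tested.

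Members of replicate 1 alone numbered 94 with no candidate of IDR 0.05 or less in the other replicate, 73 at or above the median signal and 77 at signal 100 to 150, and those of replicate 2 alone numbered 90 and 99 in the last 2. Against recurring peaks, 13 6-mers were called in all. The count was 6 in the conservative list, 1 with no candidate of IDR 0.05 or less, 21 with an overlap of 50% of the shorter peak, 21 with summits within 100 bp, 5 in windows of 200 bp and 22 without other short genes, and 0 at or above the median signal and at signal 100 to 150. Features called were 0 in the conservative list, at signal 100 to 150 and without exact copies, 2 with 1000 bp, 50% overlap or no other short genes, and 3 with 200 bp. Motifs called were 1 with no candidate of IDR 0.05 or less and in windows of 200 bp, and 0 in both signal ranges.

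Some differences from recurring peaks changed sign, in percentage points. Coding sequence went to -1.159 at or above the median signal and -6.946 at signal 100 to 150, intergenic to 2.398 and 2.185, intron to 5.802 and CGGCCA to 1.777 at signal 100 to 150. A neighbouring summit went to 0.6341 at or above the median signal, and G and C content to -1.343 with no candidate of IDR 0.05 or less. For coding sequence the adjusted p of Fisher's exact test ran from 0.00134 to 1, and for TTTCAG from 0.000265 to 0.275. Between the sides, where no difference passed, promoter went to -1.56 (conservative list) and -0.2886 (signal 100 to 150), X to 0.2738 and a neighbouring summit to 1.881 (conservative list), and intron to -0.01631 (no exact copies). Coding sequence went to -0.2873 (no candidate of IDR 0.05 or less), -0.4758 (50% overlap) and -0.01502 (summits within 100 bp), and autosome arms to 3.372, 0.6029 and 0.1562 in the same settings and 2.427 at signal 100 to 150.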
